A study of Mus musculus with 2 samples.

Results

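Mir208a, Mir208b and Mir499 are microRNA genes inside introns of the myosin heavy chain genes Myh6, Myh7 and Myh7b, and they were found by their GENCODE M21 symbols: 3 of the 2202 microRNA genes in the count tables. They were measured by small RNA sequencing of gastrocnemius, the large calf muscle, from B6CASTF1/J mice, the hybrid offspring of a C57BL/6 and CAST/EiJ cross. Both libraries are labelled as from females of 36 days, and the labels name no treatment, transgene or altered allele. The 2 libraries form 1 group, numbered by the labels as biological replicates 1 and 2, so no conditions could be compared. The labels number the females separately but give both the same donor identifier. Differences between the libraries may therefore be between animals, between dissected pieces or between library preparations, which cannot be told apart.

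A myosin heavy chain gene makes the motor protein of the muscle filament, and its primary transcript can also carry a microRNA that is cut out of an intron. Myh6 makes the alpha heavy chain of heart muscle, Myh7 makes the beta heavy chain of slow (type I) skeletal fibres and of heart, and Myh7b is a related gene of slow muscle and heart. The microRNAs of Myh7 and Myh7b are known for repressing transcriptional repressors of slow-fibre genes, among them Sox6, and the microRNA of Myh6 for its part in the stress response of the heart. The gastrocnemius of the mouse is a mixed muscle in which fast fibres prevail and slow fibres lie mainly in its deep part.

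The mature microRNAs are shown first because the 3 genes are related by sequence as well as by host. The sequences were taken from RefSeq (GRCm38.p6), where all 3 genes were matched. Capitals mark the seed, bases 2 to 8 from the 5′ end, which leads the pairing with a target messenger RNA.
miR-208a-3p: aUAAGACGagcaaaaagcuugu
miR-208b-3p: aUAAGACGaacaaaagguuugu
miR-499-5p: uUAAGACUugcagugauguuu
The 3p arms of Mir208a and Mir208b have the same seed and differ at 3 of 22 bases, G10A, A16G and C18U, counted from the 5′ end with the base of miR-208a-3p first. The seed of miR-499-5p differs from theirs in its last base (G8U) and is identical over bases 2 to 7. Among the 1738 mature mouse sequences of the table, no others had UAAGAC at bases 2 to 7.

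The arms on the other side of each hairpin do not have that seed in common.
miR-208a-5p: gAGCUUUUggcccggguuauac
miR-208b-5p: aAGCUUUUugcucgcguuaugu
miR-499-3p: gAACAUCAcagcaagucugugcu
The 5p arms of Mir208a and Mir208b share their seed with each other and with miR-6415, whose gene had 0 reads in both libraries. They differ at 6 of 22 bases. The tables count reads per hairpin gene, so the values below do not tell the arms apart.

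The hairpins are given below to show where the arms lie, with the mature sequences in capitals.
Mir208a: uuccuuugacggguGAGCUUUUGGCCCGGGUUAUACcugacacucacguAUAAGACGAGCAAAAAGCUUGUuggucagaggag
Mir208b: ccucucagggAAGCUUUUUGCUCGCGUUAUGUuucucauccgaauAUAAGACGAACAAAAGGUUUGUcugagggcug
Mir499: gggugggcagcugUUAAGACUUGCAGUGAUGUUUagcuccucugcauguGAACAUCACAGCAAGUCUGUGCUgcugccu
In a global alignment the hairpins of Mir208a and Mir208b were identical at 66.7% of positions, Mir208b and Mir499 at 60.0%, and Mir208a and Mir499 at 48.5%. The seed-sharing arm lies on the 3′ side of the hairpin in Mir208a and Mir208b and on the 5′ side in Mir499. The predicted folding energies were -37.6 kcal/mol for Mir208a, -32.2 for Mir208b and -42.5 for Mir499.

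Reads with more than 1 match in the genome were assigned to no gene, and they made up 75.4% of the reads of replicate 1 and 77.6% of those of replicate 2. Such a loss can fall on microRNAs with identical copies, such as those of the Mir1a and Mir133a genes. The counts do not say which sequences these reads came from. For the myosin microRNAs, the longest stretch of any mature arm found in another annotated hairpin, on either strand, was 14 bases, between miR-208a-3p and the hairpin of Mir208b and between miR-208b-5p and the hairpin of Mir208a. Each of the 6 arms occurred whole in annotated transcripts of its own gene only. The rest of the genome was not searched. No reads lay on the opposite strand at any of the 3 genes, and their counts were the same with and without regard to strand.

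Mir208a is at chr14:54949060-54949142 on the minus strand (mm10), in intron 29 of the 38 introns of Myh6. Mir208b is at chr14:54975700-54975776 on the same strand, in intron 31 of the 40 introns of Myh7. Both introns are followed by 10 exons, and the hairpins are 26557 bases apart, since Myh6 and Myh7 are neighbours. Mir499 is at chr2:155622880-155622958 on the plus strand, in intron 19 of the 41 introns of Myh7b, with 23 exons after it. The introns are short, 542, 461 and 481 bases, and the hairpins begin 195, 102 and 158 bases behind the exon before them for Mir208a, Mir208b and Mir499. All 3 genes lie on the strand of their host. Mir6923, in Myh3 (an embryonic myosin gene), was the only other microRNA gene on the strand of a gene with a symbol that begins with Myh or Myl, and it had 0 reads in both libraries.

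**Figure D1:**
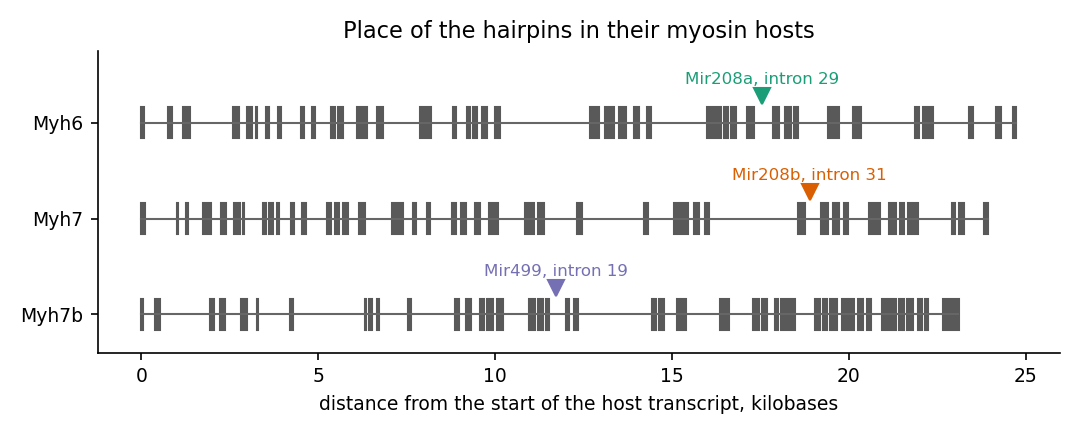
Exons (grey boxes) of 1 principal transcript of each host, drawn to scale by distance from the transcript start in kilobases, with the hairpin of each microRNA as a triangle. Mir208a and Mir208b sit before the last 10 exons of Myh6 and Myh7, whereas Mir499 sits in intron 19 of Myh7b.

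The libraries themselves had 1593787 and 2078101 reads assigned to microRNA genes. Listed markers of skeletal muscle were present in both, with reads for 6 of 6 genes and a summed 2.11% of gene-assigned reads in replicate 1 and 6.75% in replicate 2, nearly all from Mir206. Mir206 and Mir1a-2 were called higher in replicate 2. The other 4 were not called: Mir1a-1 (fold 0.598), Mir133a-1 (0.730), Mir133b (1.04) and Mir133a-2 (1.20). Mir208a was the only heart marker listed, at 1 and 15 reads. Other cell types differed too: the 2 smooth muscle genes summed to 12.03% and 6.25%, the 2 erythroid genes to 3.73% and 0.898%, and the 3 endothelial genes to 8.86% and 11.3%. Of the endothelial genes, Mir126a was called higher in replicate 2, and Mir221 (fold 0.985) and Mir222 (fold 0.820) were not called. The 4 leukocyte genes summed to 0.142% and 0.209% (Mir155 and Mir150 called higher in replicate 2, Mir223 and Mir142 lower). The 9 nerve and glia genes summed to 0.152% and 0.0539%, nearly all from Mir338 (2411 and 1105 reads, called lower). Of the others, Mir219a-1 (4 and 8 reads) and Mir219a-2 (5 and 7) were not called and Mir9-3 (0 and 1) was not tested. Mir9-1, Mir9-2 and the 3 Mir124a genes were at 0. The 4 fibroblast genes summed to 0.0652% and 0.0698% (Mir214 called higher, Mir199b lower, Mir199a-1 at 0), and the 7 epithelial genes to 0.0280% and 0.0152%. The liver gene Mir122 held 0.0201% and 0.0167%. The part of these differences in the result for the myosin microRNAs was not tested.

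Mir499 was the most abundant of the 3, with 86 reads in replicate 1 and 1527 reads in replicate 2. These are 54.0 reads per 1000000 gene-assigned reads (CPM) with a 95% Poisson interval of 43.2 to 66.6, and 734.8 CPM (698 to 773). The libraries are far apart, with no overlap of the intervals. Intervals cover counting error only, since PCR copies of a molecule cannot be recognised. In whole tissue, fewer cells of a type and less RNA per cell cannot be told apart.

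Mir208b, the microRNA of the slow myosin gene, had 5 reads in replicate 1 and 889 reads in replicate 2. Its level was 3.14 CPM (1.02 to 7.32) and 427.8 CPM (400.1 to 457). It was close to the limit of detection in one library, where a count of 0 would allow up to 1.88 CPM, and among the 100 most abundant genes in the other.

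Mir208a, the microRNA of the heart myosin gene, had 1 read in replicate 1 and 15 reads in replicate 2. Its level was 0.627 CPM (0.0159 to 3.50) and 7.22 CPM (4.04 to 11.9). In replicate 1 it was under the 3 counts that a count of 0 allows.

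**Figure D2:**
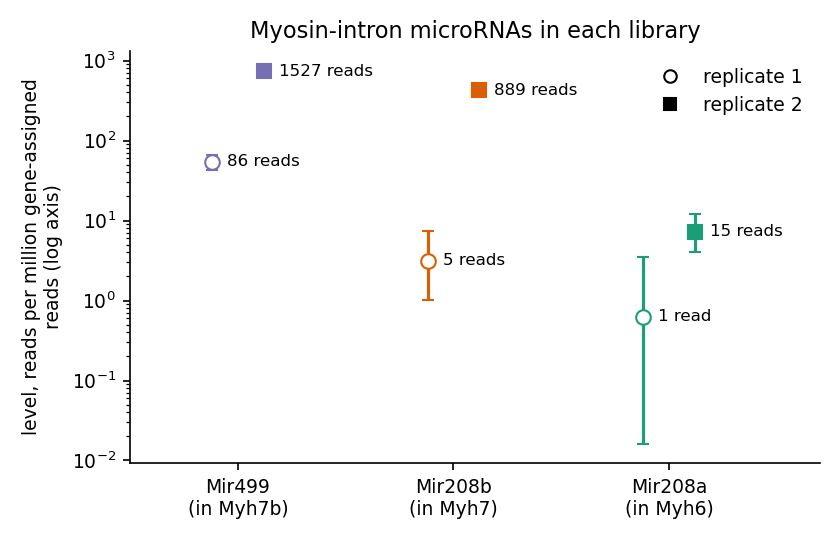
Level of each gene in CPM on a log axis, with open circles for replicate 1, filled squares for replicate 2 and bars for 95% Poisson intervals (counting error only). Each gene is higher in replicate 2, and the order Mir499, Mir208b, Mir208a is the same in both libraries.

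Read counts of different microRNAs need not stand in the ratio of the molecules, because adapters join to sequences with unequal efficiency, so the order given here is one of counts for hairpins of similar length (77 to 83 bases). The order was Mir499, Mir208b, Mir208a in both libraries. In replicate 1 the intervals of Mir208b and Mir208a overlapped, so their order there is within counting error. All other neighbours in the order were apart by more than their intervals within each library. Across the libraries the mean levels were 394 ± 481 CPM for Mir499, 215 ± 300.3 CPM for Mir208b and 3.92 ± 4.66 CPM for Mir208a (SD, n = 2), and each SD exceeded its mean, so the means of neighbours were not separated beyond the spread between libraries. On the log2(CPM + 1) scale the levels were 7.65 ± 2.65, 5.40 ± 4.73 and 1.87 ± 1.65.

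Mir499 ranked 189 of 479 genes with reads in replicate 1, between Snord43 with 88 reads and Mir31 with 83. In replicate 2 it ranked 70 of 496, between Mir483 with 1532 reads and Mir185 with 1490. Mir208b moved from rank 306, tied with 9 genes at 5 reads, to rank 94, between Mir425 with 917 reads and Mir342 with 884. Mir208a moved from rank 393, tied with 86 genes at 1 read, to rank 279, tied with 5 genes at 15 reads. In replicate 1 it stood below Gm44456 with 2 reads and in replicate 2 between Mir1291 with 16 and Mir7b with 14. In replicate 2, then, both slow-fibre microRNAs stood within the first 94 of 496 detected genes, while Mir208a stayed in the lower part of the order.

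**Figure D3:**
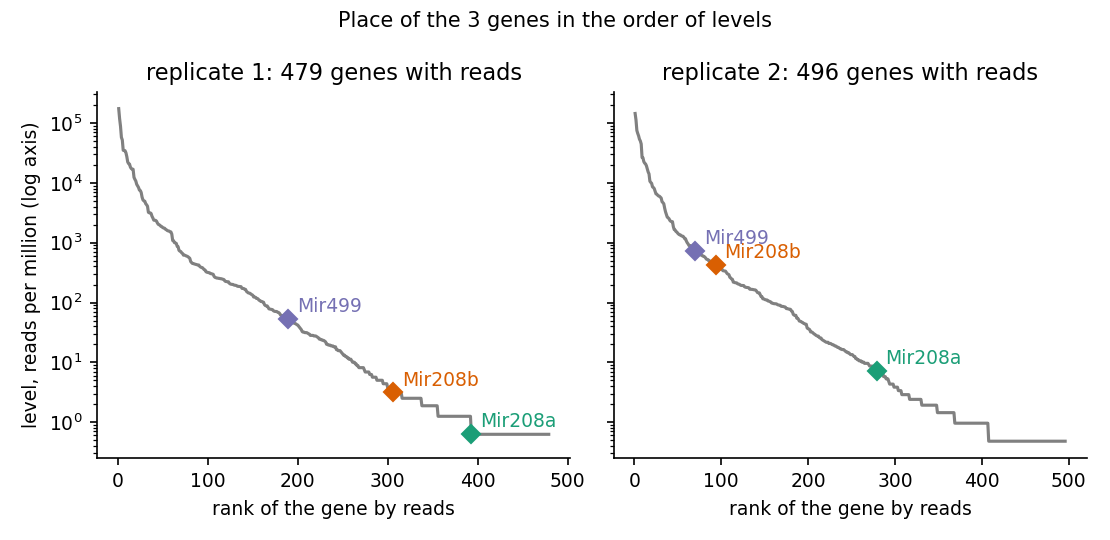
Level in CPM (log axis) against rank for all genes with reads, 479 in replicate 1 and 496 in replicate 2, with the 3 genes marked. Mir208b moves from rank 306 to rank 94 and Mir499 from 189 to 70.

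The difference between the libraries was then set against that of all genes. Sizes were scaled with TMM factors, and for each of 323 genes with at least 10 reads in both libraries together a two-sided exact binomial test asked whether its reads divided as the scaled sizes would give. The test compares 2 libraries, not conditions, and takes no account of spread between animals. All 3 myosin microRNAs were called higher in replicate 2. Mir208b and Mir208a reached the minimum of 10 reads only through replicate 2. For Mir208a, with 1 read in replicate 1, this fixed the direction in advance, so its call adds no support. The call of Mir208b, with 5 reads in replicate 1, depends on the filter by sum. It could not be tested with at least 10 reads in each library, so its call is description only. The background is high: 57.9% of tested genes were called in either direction and 30.7% higher in replicate 2, so a call alone says little and the size of the difference matters more. The split of the calls depends on the scaling, with 99 higher and 88 lower for TMM and 54 higher and 138 lower for upper-quartile factors, and the 3 myosin microRNAs were higher and called with both.

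Replicate 2 exceeded replicate 1 by 142-fold for Mir208b (interval 60.5 to 438, at 95% and for counting error only), with an adjusted p of 7.74e-215 in the exact binomial test. Mir499 was 14.2-fold higher (11.4 to 17.8; adjusted p = 5.54e-274, exact binomial). Mir208a was 12.0-fold higher (1.84 to 504; adjusted p = 0.00376, exact binomial), an interval so wide because replicate 1 had 1 read. A difference of at least 10-fold in that direction was found for 1.24% of tested genes, 4 of 323, with a count of 0 in replicate 1 set to 3 counts. The 3 myosin microRNAs were among the 4, although Mir208a was 9.60-fold higher with upper-quartile scaling and its interval begins far below 10. The floor was also uneven, since the 1 read of Mir208a in replicate 1 was not raised to 3 counts. With 3 counts there, Mir208a would not reach 10-fold. The remaining gene of the 4 was Mir375, with 11 and 179 reads. Mir547, with 0 and 32 reads, was 8.51-fold higher by that floor, and its 95% counting interval begins at 6.53. Both Mir375 and Mir547 were named after their values were seen. The median log2 ratio of the tested genes with reads in both libraries was 0.04.

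To allow a spread beyond counting error, edgeR's exact test was run with the common dispersion estimated from the same libraries (a coefficient of variation of 0.397), and it called 1.55% of tested genes. It called Mir208b (adjusted p = 2.48e-07) and Mir499 (adjusted p = 0.00689) and did not call Mir208a (adjusted p = 0.511). The filter was the same, so Mir208b entered this test too only through replicate 2. That dispersion contains the difference between the libraries, so the test orders ratios by their size at a given depth and holds no estimate of the spread between animals.

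**Figure D4:**
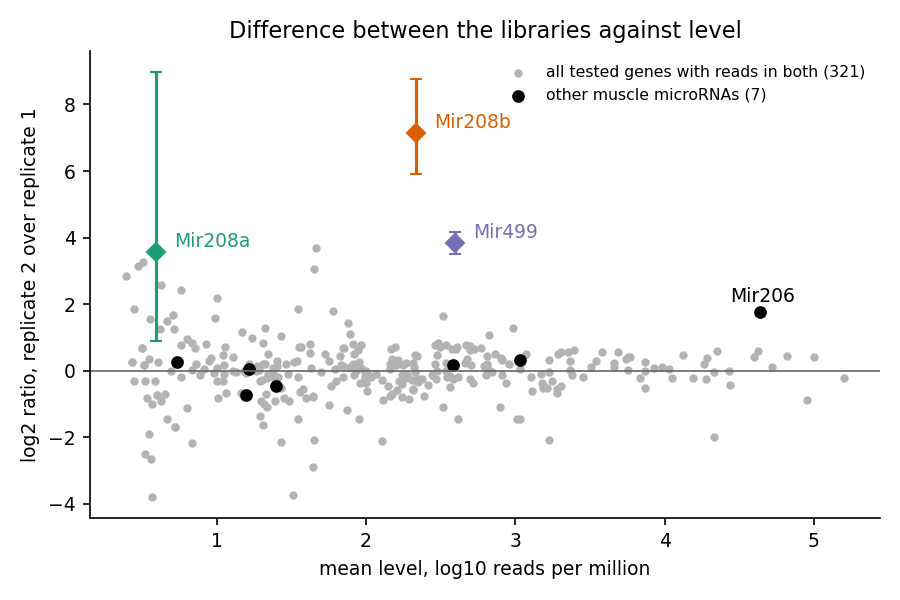
Log2 ratio of replicate 2 over replicate 1 against mean level (log10 CPM) for the 321 tested genes with reads in both libraries (grey), 7 other muscle microRNAs (black) and the 3 myosin microRNAs (diamonds, bars 95% counting intervals). Mir208b and Mir499 lie above all grey points of similar level, and Mir208a has the widest interval of the 3 (1.84 to 504 as a fold).

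The makeup of the group differed as well. Summed, the 3 genes had 92 reads in replicate 1 and 2431 reads in replicate 2, which is 57.7 CPM (46.5 to 70.8) and 1170 CPM (1124 to 1217), a mean of 614 ± 786 (SD, n = 2). Mir499 made up 93.5% of these reads in replicate 1 (Clopper-Pearson 95% interval 86.3 to 97.6) and 62.8% in replicate 2 (60.9 to 64.7). Mir208b made up 5.43% (1.79 to 12.2) and 36.6% (34.7 to 38.5). Mir208a made up 1.09% (0.0275 to 5.91) and 0.617% (0.346 to 1.02), so its share was small in both libraries and its intervals overlapped.

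Ratios within a library do not depend on how the libraries are scaled. Mir499 had 17.2 reads for each read of Mir208b in replicate 1 (7.09 to 54.3) and 1.72 in replicate 2 (1.58 to 1.87), so the ratio was 10.01-fold lower in replicate 2 (exact conditional interval 4.10 to 31.7). Mir208a had 20.0 reads per 100 of Mir208b in replicate 1 (0.423 to 179) and 1.69 in replicate 2 (0.940 to 2.80). The ratio of those, 11.7-fold lower, had an interval of 0.235 to 115 and was not resolved at this depth. Against Mir499, Mir208a had 1.16 reads per 100 in replicate 1 (0.0291 to 6.65) and 0.982 in replicate 2 (0.548 to 1.63), again with overlapping intervals. Between the slow-fibre microRNAs, then, Mir208b differed more between the libraries than Mir499 did, and the depth did not settle with which of them Mir208a moved.

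Other microRNAs of muscle had smaller folds. Of 8 measured genes of that list, 7 had enough reads to be tested, 3 of them were higher in replicate 2 and none was lower. That is 42.9% higher, beside 30.7% of all tested genes, and 42.9% called in either direction, beside 57.9%. Their median log2 ratio was 0.18, against 0.04 for all tested genes. Mir206, a microRNA of skeletal muscle, had 32871 and 139295 reads and was 3.38-fold higher (3.34 to 3.42). Mir486, in the ankyrin gene Ank1, had 1549 and 2431 reads and was 1.25-fold higher (1.17 to 1.33). Mir1a-2 was 1.13-fold higher (1.02 to 1.26). Of these 3 calls only that of Mir206 (2.71-fold) held with upper-quartile scaling, where Mir486 had a fold of 1.004, Mir1a-2 one of 0.910, and 2 genes of the list, Mir1a-1 (0.480) and Mir133a-1 (0.586), were called lower. The call of Mir1a-2 was also lost with unscaled totals (1.09) and DESeq2 factors (1.10). Mir1a-1 (32 and 24 reads), Mir133a-1 (47 and 43), Mir133a-2 (8 and 12) and Mir133b (26 and 34) did not pass the test, and Mir1b with 4 and 1 reads was too low to be tested. The Mir1a and Mir133a genes have identical copies, so these counts hold only the part of their reads that was placed at 1 locus.

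**Figure D5:**
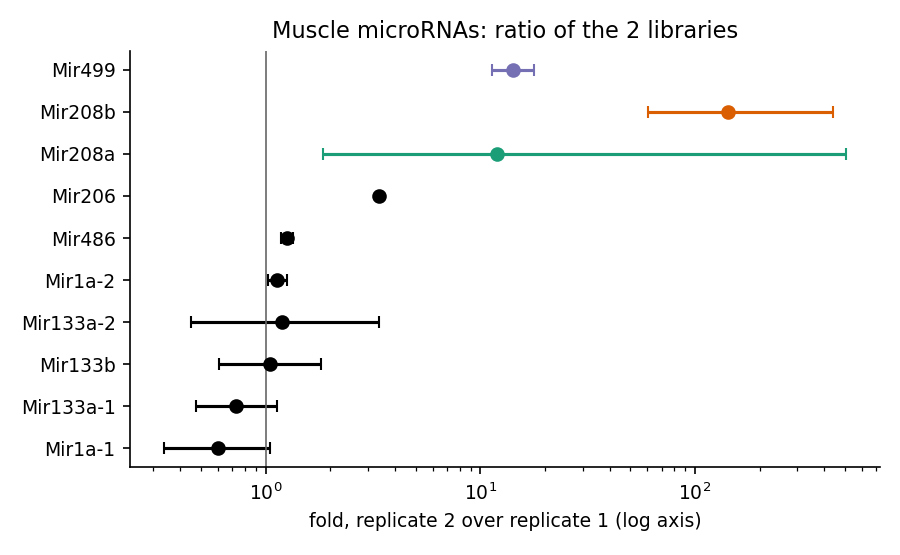
Fold of replicate 2 over replicate 1 (log axis) with 95% counting intervals for the 3 myosin microRNAs (colours) and 7 other muscle microRNAs (black), with the line at 1 for no difference. The interval of Mir208b (60.5 to 438) lies above that of Mir499 (11.4 to 17.8), which lies above that of Mir206 (3.34 to 3.42).

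Set against Mir206 instead of the library size, a reference chosen after the data were seen, Mir499 had 2.62 reads per 1000 of Mir206 in replicate 1 (2.09 to 3.23) and 10.96 in replicate 2 (10.4 to 11.5), a ratio of 4.19 (3.37 to 5.27). Mir208b had 0.152 (0.0494 to 0.355) and 6.38 (5.97 to 6.82), a ratio of 42.0 (17.9 to 130). Both were therefore higher in replicate 2 also relative to the muscle microRNA of the list with the most reads placed at 1 locus. For Mir208a the ratio of 3.54 had an interval of 0.545 to 149 and could not be told from 1.

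Many other tested genes also lay within a protein-coding gene. Apart from the 3 myosin microRNAs, 137 lay on the strand of a protein-coding gene that encloses them, and 42 of these were higher and 38 lower in replicate 2, with a median log2 ratio of -0.02. Their 30.7% higher is the share of all tested genes, and 58.4% were called in either direction, beside 57.9%. In the list of intronic microRNAs of muscle or metabolic hosts, 27 of the 29 genes other than the myosin ones were tested. Of these, 9 were higher (33.3%, beside 30.7% of all tested genes) and 10 lower (beside 88 of all 323 tested genes). In either direction 70.4% were called, beside 57.9% of all tested genes. The median log2 ratio of the list was -0.09. Among those called, the folds ran from 0.365 (0.340 to 0.393) for Mir338 in Aatk, a kinase gene, to 2.17 (1.67 to 2.83) for Mir30c-1 in Nfyc, a transcription factor subunit. The most abundant were Mir378a in Ppargc1b, with a fold of 0.862 (0.858 to 0.867), and Mir126a in Egfl7, which was 1.33-fold higher (1.32 to 1.34). Mir26b in Ctdsp1, a phosphatase gene, was 1.16-fold higher (1.14 to 1.18). Mir30e, also in Nfyc, had a fold of 0.9996 (0.976 to 1.02) and did not pass. Mir151 in Ptk2, a kinase of cell adhesion, was 1.32-fold higher (1.28 to 1.35), and Mir28a in Lpp was 1.08-fold higher (1.05 to 1.12). With upper-quartile scaling the list had 6 higher and 15 lower of 27, beside 54 higher and 138 lower of all 323 tested genes. Mir26b (0.929), Mir28a (0.869), Mir30e (0.802) and Mir378a (0.692) were then called lower.

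The genes most like Mir499 in pattern were sought among 214 others with at least 100 reads in both libraries together, by the difference of log2 ratios over the 2 libraries. They were Mir375 (0.13 apart on the log2 scale), a microRNA of endocrine cells, Gm26117 (0.78), Mir190b (1.96), Mir181a-2 (2.03) and Mir206 (2.07). The closest to Mir208b was Mir499 itself, 3.32 apart, followed by Mir375 (3.45), Gm26117 (4.11), Mir190b (5.29) and Mir181a-2 (5.36). No gene with that many reads had a ratio close to the 7.15 of Mir208b. With 2 libraries, likeness means only a similar ratio.

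The hosts were not measured in these libraries, which hold small RNA only. Their promoters are shown because the 3 genes were higher in the same library, 250 bases before to 50 bases after the RefSeq start (GRCm38.p6). Myh7 had 2 promoter entries, and the one nearest the annotated start of the gene was used, so distances for Myh7 hold for that entry. Capitals mark matches, on either strand, to letters of 5 motifs known from muscle gene promoters, which are spelled out behind the sequences.
Myh6, chr14:54966558-54966857, minus strand: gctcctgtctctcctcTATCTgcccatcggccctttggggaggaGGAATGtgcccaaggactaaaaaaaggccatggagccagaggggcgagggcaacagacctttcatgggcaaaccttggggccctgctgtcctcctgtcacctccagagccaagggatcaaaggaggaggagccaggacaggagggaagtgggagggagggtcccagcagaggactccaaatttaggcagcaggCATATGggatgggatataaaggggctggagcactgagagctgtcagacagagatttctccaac
Myh7, chr14:54994577-54994876, minus strand: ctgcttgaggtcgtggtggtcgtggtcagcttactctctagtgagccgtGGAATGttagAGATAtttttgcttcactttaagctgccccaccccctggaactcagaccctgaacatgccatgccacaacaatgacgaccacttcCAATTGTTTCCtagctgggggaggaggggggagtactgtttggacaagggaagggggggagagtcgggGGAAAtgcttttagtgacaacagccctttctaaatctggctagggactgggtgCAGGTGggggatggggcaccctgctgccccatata
Myh7b, chr2:155610993-155611292, plus strand: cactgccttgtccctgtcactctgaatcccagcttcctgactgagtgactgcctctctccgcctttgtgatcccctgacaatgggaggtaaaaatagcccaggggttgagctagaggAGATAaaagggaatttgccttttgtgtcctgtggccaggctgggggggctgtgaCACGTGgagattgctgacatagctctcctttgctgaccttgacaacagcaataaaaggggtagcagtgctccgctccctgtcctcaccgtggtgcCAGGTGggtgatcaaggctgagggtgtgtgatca
All 3 windows had an E-box (CANNTG), which 72.3% of 32851 promoter windows of that length have. Each also had 1 match to the GATA letters (AGATA), which 29.6% have. The MCAT letters (CATTCC) occurred in the windows of Myh6 and Myh7, 206 and 201 bases before the start, and in 14.7% of all windows. The NFAT letters (GGAAA), found in 61.3% of windows, occurred among the 3 in that of Myh7 only, where 1 match begins at the base after an E-box. The MEF2 core, found in 3.69%, occurred in none of the 3. A match is a run of letters and was not tested as a site.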

How the data were processed

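Per the labels, small RNA (size range under 30 nucleotides) was sequenced from total RNA of gastrocnemius in 2 biological replicates. The deposited tables hold raw counts per microRNA gene (mm10, M21 annotation, per the deposited read-me text), with 3 count columns and 4 summary rows. Neither the aligner nor the read counter is given in the sources used here. The columns were read from their values as counts without regard to strand, on the strand of the gene (used here) and on the opposite strand. All 2202 identifiers matched GENCODE M21, and summary rows stayed out of library sizes.

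CPM used gene-assigned reads. The binomial test took TMM sizes from edgeR 4.0.16 (R 4.3.3), genes with at least 10 reads in both libraries together, and Benjamini-Hochberg adjustment over all of them at 0.05. The filter is on the sum, since a minimum in each library would remove genes that are low in 1. Alternatives covered scaling (DESeq2 1.42.0 included), filter, strand, dispersion, pseudocount, total reads and leaving out each replicate. The test was checked on simulated counts with counting noise only, which cannot show how it behaves with the wider spread of these libraries. Named genes were the 3 members, the fixed lists, level neighbours and nearest ratios. Members and lists were chosen with earlier results of these data known. Mir486b of the muscle list had no matching symbol. Sequences came from RefSeq tables, with alignment in Biopython 1.88 and folding in ViennaRNA 2.7.2. Python 3.11.15 and scipy 1.17.1 were used.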

Additional observations from a re-analysis of the deposited data

Results flagged for a closer look

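Much of each library lay outside the gene counts and above the limit of 3 counts. Multiply matched reads came to 7195252 for replicate 1 against 10919725 for replicate 2, and singly matched reads beyond any microRNA gene to 142257 against 232773. The tables do not say which microRNAs the former came from, so any share of the myosin microRNAs in them is unknown.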

How the results depend on the processing

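The folds of Mir208b and Mir499 kept their direction under every alternative that gave a value, and their call in those that gave an adjusted p: Mir208b ranged from 114 (upper-quartile scaling) to 142 and Mir499 from 11.4 to 14.2. Relative to Mir206, where no adjusted p was computed, they were 42.0 and 4.19. With at least 10 reads in each library, Mir208b and Mir208a could not be tested, and with at least 100 reads together Mir208a could not. Mir208a lost its call when edgeR was run with a common dispersion (10.9-fold, adjusted p = 0.511, against adjusted p between 0.00376 and 0.0147 in the alternatives that used the binomial test), and relative to Mir206 (3.54-fold) its interval included 1. The count of called genes fell from 187 to 5 with edgeR at the common dispersion and lay between 165 and 192 otherwise. Calls were 99 higher and 88 lower with TMM, and 54 higher and 138 lower with upper-quartile scaling, which moved the median log2 ratio of all genes from 0.04 to -0.28. Leaving out 1 library gave 57.7 to 1170 CPM for the 3 genes together, 1.72 to 17.2 reads of Mir499 per read of Mir208b, and 1.69 to 20.0 reads of Mir208a per 100 of Mir208b. A fold could not be computed with 1 library. With all reads as the total, the 3 genes held 9.64 and 172.7 per 1000000. Depth limits Mir208a most, with 1 read in replicate 1.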

Other observations

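The 5 genes that edgeR's exact test called at the common dispersion held, besides Mir208b and Mir499, the endocrine microRNA Mir375 (11 and 179 reads, 13.0-fold higher in replicate 2, interval 7.08 to 26.5), Mir547 on chromosome X (0 and 32 reads) and Mir183 of sensory cells (96 and 9 reads, the only one lower in replicate 2).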
